A study of Mus musculus with 6 samples.

Results

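Transcript levels of Trp53, which encodes the tumour suppressor p53, and of 9 genes known as p53 targets were compared between stretched and unstretched liver sinusoidal endothelial cells of the mouse. The 10 genes were chosen by name (Trp53, Cdkn1a, Mdm2, Ccng1, Trp53inp1, Phlda3, Zmat3, Gdf15, Btg2 and Gadd45a), and all 10 were found among the 23337 genes of the count table. Sinusoidal endothelial cells line the hepatic capillaries. They were isolated from mice with immunomagnetic beads, cultured on collagen IV and serum starved. The stretch group (3 libraries, replicates 1, 2 and 4) then received cyclic stretch of 4% at 1 Hz on a Flexcell device, which pulls the flexible floor of the culture well, and the control group (3 libraries, replicates 2, 3 and 4) was not stretched. The sources used here state neither the duration of stretch nor the strain, sex and age of the mice. No label says whether the libraries of a group came from separate animals or isolations, so p-values measure the spread between these libraries, which may be technical.

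p53 is a transcription factor that is kept scarce by Mdm2, a ubiquitin ligase that marks it for degradation, and Mdm2 is itself a p53 target, which closes a feedback loop. When p53 is stabilised by DNA damage or other stress it binds paired decamers in DNA and raises a set of genes that stop the cell cycle, repair DNA, adjust metabolism or start apoptosis. p53 is controlled largely at the level of the protein, which was not measured here, and several of its targets, among them Cdkn1a, Btg2, Gadd45a and Gdf15, are also raised by growth factor and stress signals without p53.

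Between 48948948 and 68489956 counts were assigned to genes per library. The labelled cell type was checked with 10 endothelial and sinusoidal markers, whose summed level was between 12370 and 13740 CPM (counts scaled to a common library size, with TMM factors for library composition) in control libraries and between 10610 and 12060 CPM in stretch libraries. Of these 10 markers 7 were called lower after stretch and 0 higher, with a median log2 fold change of -0.47 (Gpr182 -1.28, Clec4g -1.13 and Oit3 -0.90), while Pecam1, Cdh5 and Lyve1 did not pass. Markers of other liver cells moved with stretch. The summed level of 11 hepatocyte markers was between 37.07 and 74.5 CPM in control libraries. It was 512.1 CPM in stretch replicate 1, and 104.1 and 100.8 CPM in stretch replicates 2 and 4, with 9 of 11 called higher. The sum of 12 macrophage markers was between 112.0 and 120.0 CPM in control and between 144.0 and 178.9 CPM in stretch libraries (8 of 11 tested called higher), and that of 5 cholangiocyte markers was between 80.9 and 106.9 CPM and between 141.1 and 166.5 CPM (3 of 5 called higher). None of the hepatocyte or cholangiocyte markers was at 0 in any library, while the Kupffer cell marker Clec4f was at 0 in 1 library. Of 10 stellate and mesenchymal markers none was called, and Lrat was at 0 in 4 of the 6 libraries. The part of these cells in the results below was not tested. Values without stretch replicate 1 are given for each of the 10 genes, and counts of calls without it for each wider list. In a bulk sample, fewer cells that express a gene and less RNA per cell cannot be told apart.

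The start regions of the genes are shown first because p53 acts through short DNA elements, and because genes with such an element turned out to differ in their response. The RefSeq promoter table (build GRCm38.p6) held entries for 8 of the 10 genes, all but Trp53inp1 and Zmat3. The 250 bases before each start were searched on both strands for the decamer that forms each part of a p53 response element, the p53 half-site. An exact match was found in 5 of the 8 genes, Trp53, Cdkn1a, Mdm2, Gadd45a and Ccng1, against 2216 (8.20%) of 27025 genes in the table. Of 34 other known p53 targets with an entry, taken from the lists described below, 7 (20.6%) had a match. Capitals mark the matches in the stretches below, which are written 5′ to 3′ on the strand of the gene. The stretch of Gadd45a lies before the RefSeq start but inside the first exon of the longer gene model in GENCODE M21, whose start is at 67037457.
Cdkn1a, chr17:29090881-29090962, plus strand: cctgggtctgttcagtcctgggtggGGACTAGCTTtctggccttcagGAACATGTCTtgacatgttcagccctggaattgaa
Mdm2, chr10:117710910-117710969, minus strand: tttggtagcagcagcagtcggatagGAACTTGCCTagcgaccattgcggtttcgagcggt
Trp53, chr11:69580259-69580318, plus strand: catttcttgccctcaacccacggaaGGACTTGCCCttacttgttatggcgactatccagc
Ccng1, chr11:40755437-40755496, minus strand: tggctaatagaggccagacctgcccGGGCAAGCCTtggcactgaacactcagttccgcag
Gadd45a, chr6:67037428-67037457, minus strand: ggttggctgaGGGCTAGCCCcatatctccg

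In Cdkn1a and Ccng1 the match lay directly beside a second decamer with at most 1 mismatch to the half-site, an arrangement found in 25 (0.0925%) of the 27025 genes. It was found in 1 (2.94%) of the 34 other p53 targets, Rps27l. In Cdkn1a these are the capitals GAACATGTCT and the 10 bases after them. Other elements were searched in the same windows. The cAMP response element TGACGTCA was found in Btg2, and in 1.55% of the 32851 windows of the table.
Btg2, chr1:134079289-134079346, minus strand: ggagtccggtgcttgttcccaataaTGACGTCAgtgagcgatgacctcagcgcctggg
The AP-1 element TGANTCA (6.75% of windows) and the C/EBP-ATF element TGATGNAAT (0.816% of windows) were found in none of the 8 genes. The TATA box TATAAA (12.4%) was found in Trp53 only, the E-box CACGTG (6.02%) in Gdf15 only, and the GC box GGGCGG (32.7%) in Btg2, Cdkn1a, Gadd45a, Mdm2 and Phlda3. Only these windows were searched, and a match does not show that a factor binds there.

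Of the 10 genes 4 rose after stretch (Btg2, Cdkn1a, Trp53 and Mdm2), 2 fell (Trp53inp1 and Gadd45a) and 4 did not pass the test (Zmat3, Gdf15, Phlda3 and Ccng1). These calls come from edgeR's quasi-likelihood test, with p-values adjusted by the Benjamini-Hochberg method over 14222 tested genes and called at an adjusted p below 0.05, and all 10 genes were among those tested. In the same comparison 44.0% of all genes tested were called, 21.4% higher and 22.6% lower, so a call was common, and 4 and 2 of 10 are to be read against those shares. The median log2 fold change (stretch over control) of the 10 genes was 0.10, against -0.01 over all genes tested, and their median absolute log2 fold change was 0.33 against 0.26. The increases were small, with folds between 1.25 and 1.38, and the decreases were larger. For 7 of the 10 genes the 3 stretch values lay wholly on one side of the 3 control values (4 above and 3 below), which was so for 55.9% of all genes tested (26.7% above and 29.2% below).

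**Figure D1:**
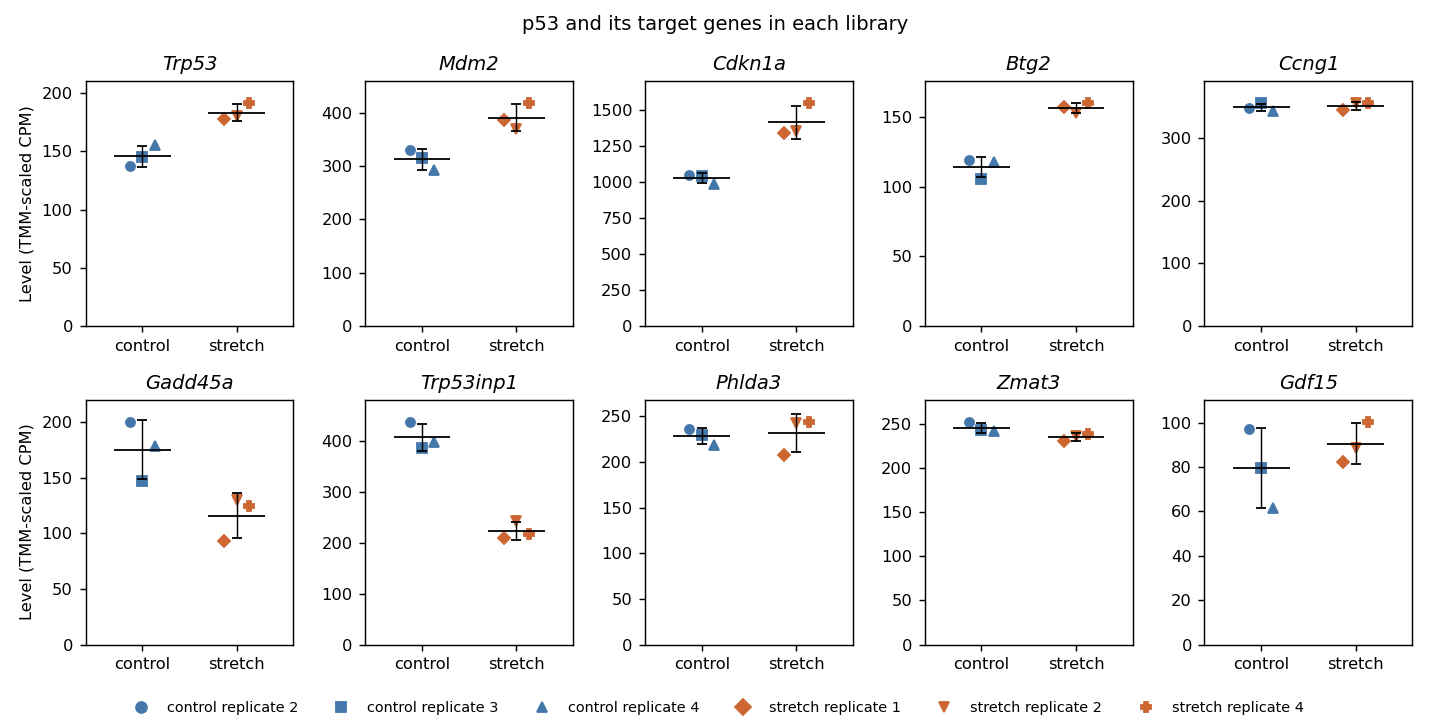
Level of each of the 10 genes (vertical axis, TMM-scaled CPM, starting at 0) in the 3 control and 3 stretch libraries. Each symbol is 1 library, the long bar is the group mean and the whiskers are the SD. All stretch libraries lie above all control libraries for Trp53, Mdm2, Cdkn1a and Btg2 and below them for Gadd45a, Trp53inp1 and, narrowly, Zmat3.

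Trp53 and its inhibitor Mdm2 rose by almost the same fold. Trp53 (chromosome 11, 69580359 to 69591873) was at 137.1, 145.1 and 155.2 CPM in control replicates 2, 3 and 4 and at 177.9, 180.3 and 191.3 CPM in stretch replicates 1, 2 and 4. The groups were apart. The log2 fold change was 0.33 ± 0.06 (SE; 1.26-fold, edgeR adjusted p = 0.00205). Mdm2 (chromosome 10, 117688905 to 117710716) was at 329.7, 315.0 and 291.7 CPM in control and at 386.2, 368.4 and 417.4 CPM in stretch libraries. Its highest control library lay below its lowest stretch library, and the log2 fold change was 0.32 ± 0.06 (1.25-fold, edgeR adjusted p = 0.00410). Without stretch replicate 1 the log2 fold change was 0.36 for Trp53 and 0.34 for Mdm2.

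The strongest increases among the 10 genes were in a pair of genes that restrain division. Cdkn1a encodes p21, an inhibitor of cyclin-dependent kinases and the best known p53 target (chromosome 17, 29090986 to 29100722). It was at 1049, 1045 and 987.9 CPM in control replicates 2, 3 and 4 and at 1344, 1354 and 1548 CPM in stretch replicates 1, 2 and 4. Stretch replicate 4 was the highest, and the lowest stretch library was well above the control libraries. The log2 fold change was 0.46 ± 0.07 (1.38-fold, edgeR adjusted p = 0.000790), and 0.51 without stretch replicate 1. Btg2 encodes an antiproliferative protein that recruits the mRNA deadenylation complex (chromosome 1, 134074865 to 134079155). Its levels were 119.2, 105.7 and 117.3 CPM in control and 157.3, 152.4 and 159.7 CPM in stretch libraries. The stretch libraries were tightly grouped above the controls, with a log2 fold change of 0.46 ± 0.05 (1.37-fold, edgeR adjusted p = 0.000356), and 0.46 without stretch replicate 1.

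The other cell cycle genes of the set did not follow. Ccng1 encodes cyclin G1, which works with the phosphatase PP2A on Mdm2 (chromosome 11, 40748552 to 40755286). It was at 348.3, 355.8 and 343.2 CPM in control and at 344.8, 355.6 and 355.7 CPM in stretch libraries, so the groups lay on top of each other. Its log2 fold change was 0.01 ± 0.04 (edgeR adjusted p = 0.842) with a 95% interval from -0.08 to 0.11, which spans folds of 0.943 to 1.08, and was 0.03 without stretch replicate 1. Gadd45a, which encodes a stress protein that binds PCNA and activates p38 signalling (chromosome 6, 67035096 to 67037407), fell. It was at 200.2, 147.1 and 178.5 CPM in control replicates 2, 3 and 4 and at 92.7, 130.1 and 124.2 CPM in stretch replicates 1, 2 and 4. Both groups were widely spread, and the highest stretch library was only a little below control replicate 3. The log2 fold change was -0.60 ± 0.14 (1.51-fold lower, edgeR adjusted p = 0.00933). It was -0.46 without stretch replicate 1, the lowest library, and the adjusted p was highest, 0.0430, without control replicate 2. Exons of Gadd45a share 337 bases, 19.1% of its exon bases, with the gene E230016M11Rik on the opposite strand in GENCODE M21. No source used here states whether the counting used strand, so it cannot be told how reads in the shared bases were counted. E230016M11Rik was at 71.0, 53.6 and 61.7 CPM in control and 29.8, 42.0 and 41.6 CPM in stretch libraries, and its log2 fold change was -0.72 ± 0.14 (edgeR adjusted p = 0.00411).

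Among targets linked to apoptosis, survival and secreted signals, 1 changed. Trp53inp1, whose product promotes p53 phosphorylation and autophagy (chromosome 4, 11156441 to 11174377), had the largest change of the 10 genes. Its levels were 437.1, 386.1 and 398.1 CPM in control and 209.1, 243.1 and 217.4 CPM in stretch libraries. Every stretch library was far below every control library. The log2 fold change was -0.87 ± 0.07 (1.82-fold lower, edgeR adjusted p = 8.04e-05), and -0.81 without stretch replicate 1. In absolute size this change exceeded that of 91.2% of all genes tested, while the change of Cdkn1a exceeded that of 72.2% and the change of Trp53 that of 59.1%.

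Phlda3, Zmat3 and Gdf15 did not pass the test. Phlda3, which encodes a pleckstrin homology protein that competes with Akt at the membrane (chromosome 1, 135766085 to 135769134), was at 236.3, 229.9 and 218.7 CPM in control and at 207.9, 243.2 and 244.0 CPM in stretch libraries. Stretch replicate 1 was the lowest of the 6 libraries and the other stretch libraries were the highest. Its log2 fold change was 0.02 ± 0.07 (edgeR adjusted p = 0.828, 95% interval -0.14 to 0.18), and 0.10 without stretch replicate 1. Zmat3, which encodes an RNA-binding zinc finger protein (chromosome 3, 32334794 to 32365665), was at 252.6, 243.5 and 242.2 CPM in control and at 230.4, 236.9 and 239.3 CPM in stretch libraries. The groups were narrowly apart, but the log2 fold change was -0.06 ± 0.04 (edgeR adjusted p = 0.262, 95% interval -0.16 to 0.03), and -0.04 without stretch replicate 1. With library sizes alone as scaling it passed as lower, at -0.16 (edgeR adjusted p = 0.0195). Gdf15, which encodes a secreted stress hormone of the TGF-beta superfamily (chromosome 8, 70629394 to 70631635), was at 97.3, 79.6 and 61.4 CPM in control and at 82.3, 88.7 and 100.4 CPM in stretch libraries. The control libraries spanned most of the range of both groups, and the log2 fold change of 0.19 ± 0.15 (edgeR adjusted p = 0.343) had a 95% interval from -0.15 to 0.53. That interval reaches a fold of 1.44, so the 1.38-fold increase seen for Cdkn1a lies within it. Its log2 fold change was 0.26 without stretch replicate 1, 0.03 without control replicate 4 and 0.36 without control replicate 2.

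**Figure D2:**
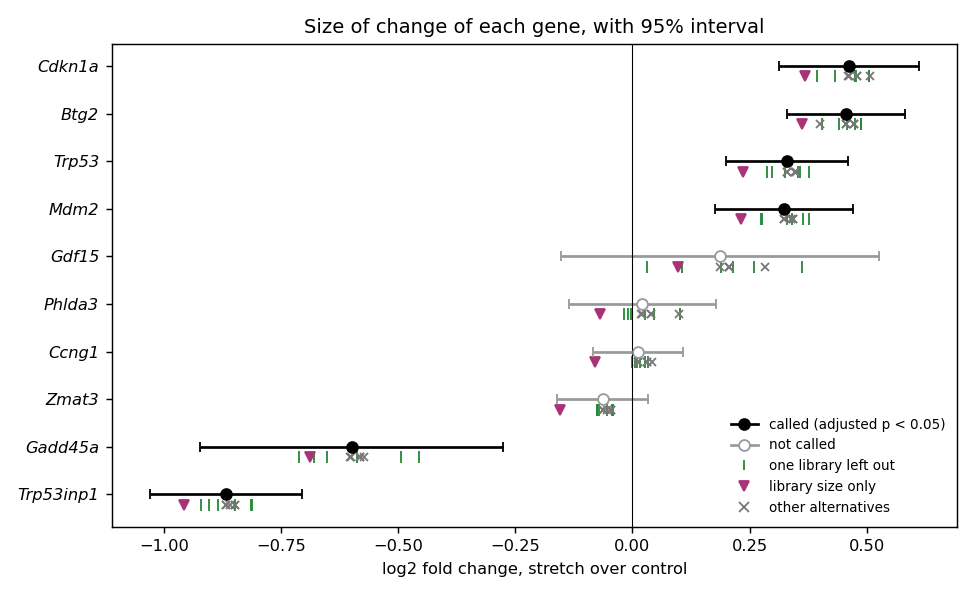
Log2 fold change of stretch over control (horizontal axis) for the 10 genes, with the 95% interval of the edgeR quasi-likelihood fit. Filled circles were called and open circles were not, and the small marks under each are the values with a library left out or another method. Cdkn1a, Btg2, Trp53 and Mdm2 stay right of 0 and Gadd45a and Trp53inp1 stay left of it in every fit shown.

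The half-site matches printed above were found in genes of each response. Cdkn1a, Mdm2 and Trp53 rose, Gadd45a fell and Ccng1 did not pass, and of the pair with 2 adjoining decamers 1 rose and 1 did not pass. Btg2, which rose, had no match in its window. In the authors' deposited table the same 6 genes had an FDR below 0.05 and the same directions, with log2 fold changes of 0.46 for Cdkn1a, 0.46 for Btg2, 0.33 for Trp53, 0.32 for Mdm2, -0.60 for Gadd45a and -0.87 for Trp53inp1. That table called 5712 (24.5%) of its 23336 genes. The test used here, on the same libraries, called 6261 (44.0%) of the 14222 genes that passed its filter.

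Ratios of raw counts within a library need no scaling between libraries. The pairs below were chosen after the values of the genes were seen, and set a gene that rose beside one that fell, or a gene that changed beside Ccng1, so that the separation of the groups follows from the choice and the ratios are given as a description. For each Trp53inp1 count the control libraries held 2.40, 2.71 and 2.48 Cdkn1a counts (replicates 2, 3 and 4) and the stretch libraries 6.43, 5.57 and 7.12 (replicates 1, 2 and 4). The ratio was 2.52 times higher in the stretch group. For each Gadd45a count there were 0.595, 0.719 and 0.657 Btg2 counts in control and 1.70, 1.17 and 1.29 in stretch libraries. Set against Ccng1, Trp53inp1 had ratios of 1.26, 1.08 and 1.16 in control and 0.606, 0.684 and 0.611 in stretch libraries, while the ratio of Mdm2 to Ccng1 was 0.946, 0.885 and 0.850 in control and 1.12, 1.04 and 1.17 in stretch libraries. A ratio shows unequal change of the genes, not which of them changed.

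**Figure D3:**
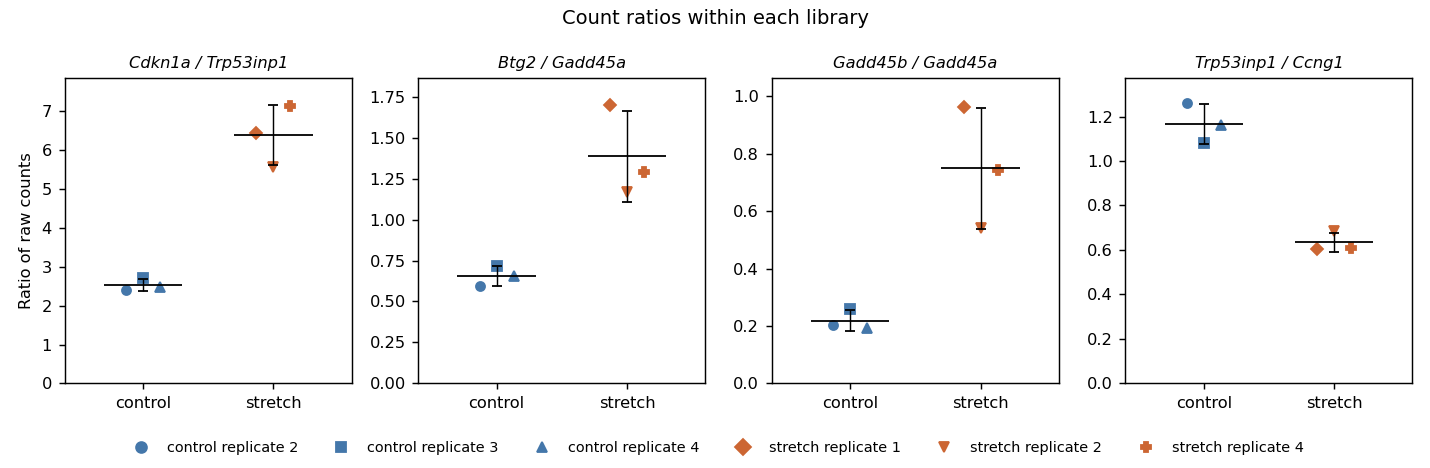
Ratio of raw counts of gene pairs within each library (vertical axis, starting at 0), with group means (bars) and SD (whiskers). The ratios of Cdkn1a to Trp53inp1, Btg2 to Gadd45a and Gadd45b to Gadd45a are higher in every stretch library, and that of Trp53inp1 to Ccng1 is lower.

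Per kilobase of gene length, Cdkn1a was the most abundant of the 10 transcripts in both groups. In the deposited RPKM values (reads scaled to gene length and library total) it was at 483 ± 11.3 in control and 626 ± 46.7 in stretch libraries (mean ± SD, n = 3 per group). Phlda3 followed in control libraries at 148.2 ± 3.68 RPKM and Gadd45a at 136.3 ± 19.4 RPKM, and the ranges of the latter pair overlapped. Next came Mdm2 at 98.2 ± 4.56 and Ccng1 at 95.4 ± 2.1 RPKM, which overlapped as well. Trp53 itself (74.4 ± 5.79 RPKM), Trp53inp1 (71.4 ± 3.69 RPKM) and Gdf15 (69.6 ± 14.7 RPKM) could not be ordered beyond their spread. Btg2 at 35.3 ± 2.13 RPKM and Zmat3 at 30.15 ± 0.23 RPKM were the lowest. In stretch libraries Gadd45a was at 84.9 ± 15.8 RPKM, with a range that overlapped those of Ccng1, Trp53 and Gdf15, and Trp53inp1 was at 36.9 ± 3.66 RPKM, below Btg2 at 45.5 ± 0.42 RPKM. The deposited RPKM values carry no TMM scaling. On that scale the means of Ccng1 (90.6 RPKM after stretch) and Phlda3 (141.8 RPKM after stretch) were slightly lower than in control libraries, opposite in sign to their TMM-scaled values.

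**Figure D4:**
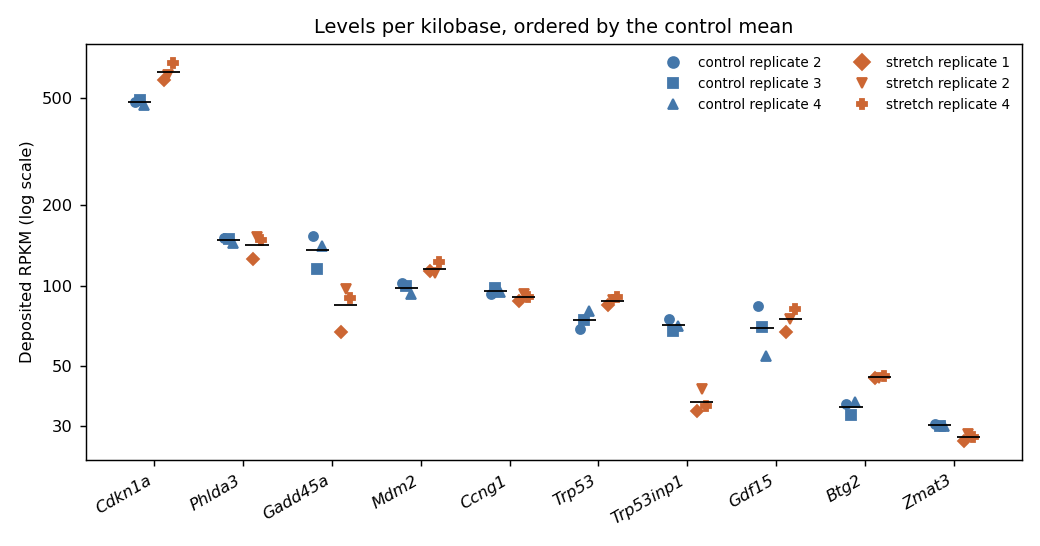
Deposited RPKM values of the 10 genes (vertical axis, log scale) in each library, ordered by the control mean. Bars are group means. Cdkn1a lies above all others in both groups, and Trp53inp1 drops from the level of Trp53 and Gdf15 in control libraries to below Btg2 in stretch libraries.

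The wider pathway was described with lists of other p53 genes, from which the called genes with the smallest p in each direction are named, along with some of their relatives and partners. Over all genes tested 21.4% were called higher and 22.6% lower, and each list is to be read against these shares. Without stretch replicate 1, calls over all genes fell as well, to 2614 higher and 2744 lower of 14460 tested. With all libraries they were 3040 and 3221 of 14222. List counts without that library are to be read against this fall. Regulators of p53 went both ways: of 14 tested, 4 rose (28.6%), 5 fell (35.7%) and 5 did not pass, with a median log2 fold change of -0.03. Without stretch replicate 1, 2 were called higher and 5 lower. Usp7, a deubiquitinase that stabilises Mdm2 and p53, rose from between 154.6 and 162.5 CPM to between 189.1 and 194.9 CPM (log2 fold change 0.27 ± 0.04, edgeR adjusted p = 0.00113), and the p53 kinase gene Hipk2 had a log2 fold change of 0.40 ± 0.06. Rfwd2, which encodes the p53 ubiquitin ligase COP1, rose by 0.15 ± 0.04 but the call was lost when control replicate 2, 3 or 4 was left out (edgeR adjusted p = 0.0763, 0.0731 and 0.0502) and when stretch replicate 1 or 4 was (edgeR adjusted p = 0.0755 and 0.0564). Among the DNA damage kinases Chek2, Atm and Prkdc fell and Chek1, at -0.11, did not pass. Atr rose by 0.21 on the log2 scale (edgeR adjusted p = 0.0278), but was not called without stretch replicate 1. Chek2 fell from between 15.3 and 18.0 CPM to between 7.44 and 8.44 CPM (log2 fold change -1.11 ± 0.09), and Atm by a log2 fold change of -0.67 ± 0.11. Hexim1, whose product also binds p53, fell by a log2 fold change of -0.57 ± 0.07. Mdm4, the partner of Mdm2, did not pass (log2 fold change 0.08). The p53 relatives Trp63 and Trp73 were too scarce to test.

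Other known p53 targets were divided as well. Of 44 tested in 3 lists, 10 rose, 13 fell and 21 did not pass, shares of 22.7% and 29.5% that are near those over all genes, and their median log2 fold change was -0.02. Without stretch replicate 1, 9 were called higher and 10 lower. Among 12 apoptosis genes 1 rose (8.33%, against 21.4% of all genes), 4 fell (33.3%, against 22.6%) and 7 did not pass. Without stretch replicate 1, 1 of these was called higher and 3 lower. The increase was in Aen, an apoptosis-enhancing nuclease, at 0.38 ± 0.05 on the log2 scale. Trp53i11 fell by 0.97 ± 0.17, Apaf1, the scaffold of the apoptosome, fell by 0.26 ± 0.05, and Lrdd, which encodes the death domain protein PIDD, fell by 0.59 ± 0.13. Bbc3 fell by 0.27 ± 0.08 (edgeR adjusted p = 0.0291), but was not called without stretch replicate 1. The apoptosis effector Bax and the death receptor Fas had log2 fold changes of 0.10 and -0.06 and did not pass.

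Of 10 DNA repair targets 2 rose (against 21.4% of all genes), 4 fell (against 22.6%) and 4 did not pass, and the counts were 2 and 4 without stretch replicate 1 as well. Pcna, the sliding clamp of DNA replication, and Polh, a translesion polymerase, rose by log2 fold changes of 0.23 ± 0.04 and 0.29 ± 0.07. The excision repair genes Xpc and Ercc5 fell, with log2 fold changes of -0.74 ± 0.10 and -0.37 ± 0.06. Xpc went from between 72.1 and 93.6 CPM to between 44.7 and 52.8 CPM.

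Of 22 growth and metabolism targets tested, 7 rose (31.8%, against 21.4% of all genes), 5 fell (22.7%, against 22.6%) and 10 did not pass. Without stretch replicate 1, 6 were called higher and 3 lower. The kinase gene Plk2 rose by a log2 fold change of 0.96 ± 0.08 and the ephrin receptor gene Epha2 by 0.56 ± 0.05. Pml, the organiser of PML nuclear bodies, fell from between 96.6 and 110.2 CPM to between 34.1 and 48.9 CPM (log2 fold change -1.31 ± 0.12). Sesn1, a sestrin that restrains mTORC1, had a log2 fold change of -1.24 ± 0.12, whereas its relative Sesn2 did not pass (0.05). Fdxr had a log2 fold change of -0.61 ± 0.17, and its call was lost when replicate 4 of the control group (edgeR adjusted p = 0.0708) or of the stretch group (edgeR adjusted p = 0.0566) was left out.

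Close relatives of the targets formed a list of their own. Of 14 paralogs tested, 3 rose (21.4%, the same share as over all genes), 6 fell (42.9%, against 22.6%) and 5 did not pass. Without stretch replicate 1, 3 were called higher and 7 lower. Gadd45b rose from 40.4, 38.2 and 34.3 CPM to 89.2, 70.6 and 92.2 CPM (log2 fold change 1.16 ± 0.10) while Gadd45a fell. The ratio of Gadd45b to Gadd45a counts was 0.202, 0.260 and 0.192 in control and 0.963, 0.543 and 0.743 in stretch libraries. Gadd45g did not pass (log2 fold change 0.29). Ccng2, the relative of Ccng1, fell from between 48.6 and 56.6 CPM to between 23.8 and 26.9 CPM (log2 fold change -1.03 ± 0.07). Cdkn1b, which encodes p27, fell by 0.75 ± 0.11 on the log2 scale, opposite to Cdkn1a. In the BTG family Btg3 rose by 0.63 ± 0.05 with Btg2, and Btg1 fell by 0.64 ± 0.08. Phlda1 rose by 0.90 ± 0.15. Trp53inp2, the relative of Trp53inp1, did not pass (log2 fold change -0.19).

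p21 acts on cyclin-dependent kinases and, through the Rb family and the DREAM repressor complex, on cell cycle genes. Of 16 G1 cyclins, kinases and Rb or DREAM components, 5 rose and 5 fell (31.2% each, against 21.4% and 22.6% of all genes), with the same counts of 5 and 5 without stretch replicate 1. Cdk6 rose from between 3.68 and 4.72 CPM to between 10.03 and 15.5 CPM (log2 fold change 1.61 ± 0.17), and the cyclin genes Ccnd1 and Ccnd2 rose by 0.85 ± 0.12 and 0.44 ± 0.06, while Ccnd3 fell by 0.56 ± 0.05. The pocket protein genes Rbl2 and Rb1 fell by 0.90 ± 0.08 and 0.47 ± 0.07 on the log2 scale. Of 20 genes lowered through DREAM, 0 rose, 3 fell and 17 did not pass, and the median log2 fold change was -0.30. The share called lower, 15%, was below the 22.6% over all genes, and without stretch replicate 1 it was 2 genes. These genes were scarce, with control means between 0.23 CPM (Cdc25c) and 14.3 CPM (Ccna2). Mki67, the proliferation marker, had the largest change, from between 11.4 and 13.1 CPM to between 4.32 and 8.38 CPM (log2 fold change -0.96 ± 0.21, edgeR adjusted p = 0.00588). E2f1 fell by 0.47 ± 0.11 on the log2 scale. Mcm5 fell by 0.32 ± 0.11, and its call was lost in every fit with a library left out other than the one without control replicate 2, with edgeR adjusted p between 0.0733 and 0.134.

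**Figure D5:**
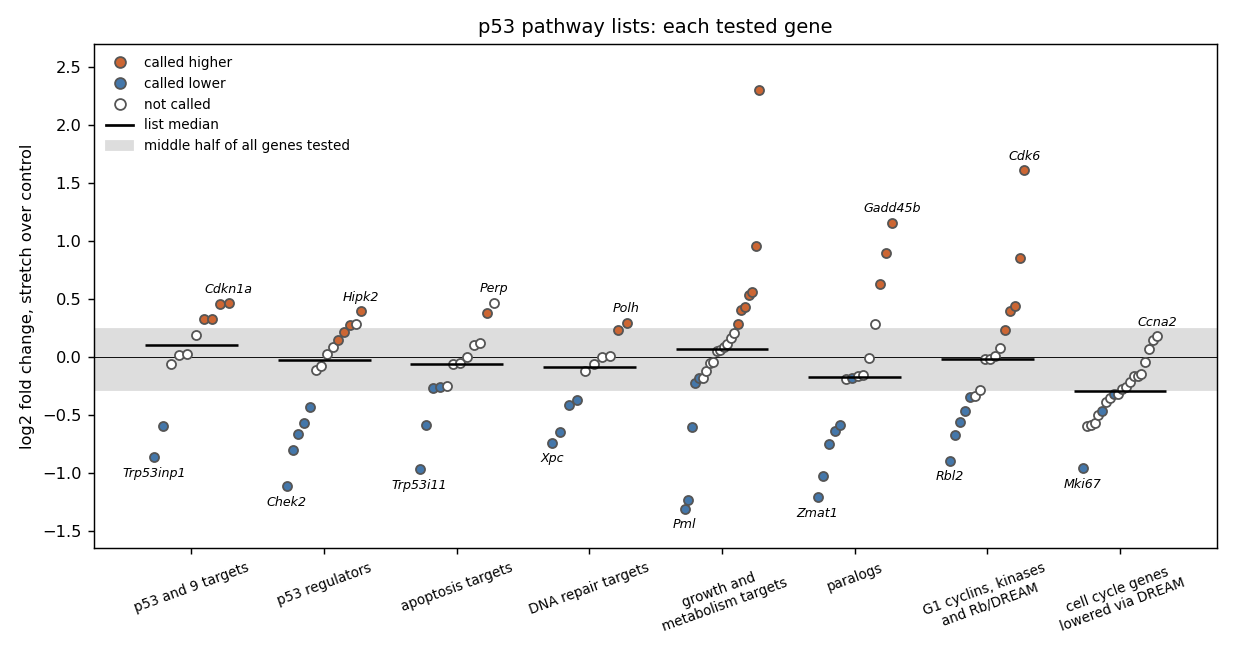
Log2 fold change of stretch over control (vertical axis) for each tested gene of the 8 lists, sorted within each list. Filled symbols were called higher or lower, the bar is the list median and the grey band holds the 25th to 75th percentile of all genes tested (-0.28 to 0.24). Each list except the DREAM-lowered cell cycle genes has called genes on both sides of 0.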

How the data were processed

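RNA sequencing libraries (TruSeq kit, per the labels' protocols) of 3 control and 3 stretch samples were used, grouped by their titles. The authors deposited raw counts for each gene. Per the submitters' processing notes, the tools were TopHat2 2.1.0, featureCounts and edgeR, and the build was GRCm38 (mm10). No source used here gives the annotation, the filters or the use of strand. A length column stands beside the counts, but the headers do not state that the deposited RPKM values used it. If they did, the library totals they imply were 7.41% (stretch replicate 1) to 8.9% (control replicate 2) above the summed gene counts. Log2 fold changes, log2 CPM, a likelihood ratio score, a p-value and an FDR stand in the authors' comparison table, per the file headers.

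The count test was edgeR 4.0.16 in R 4.3.3 (TMM, filterByExpr, quasi-likelihood F test for group, Benjamini-Hochberg over 14222 of 23337 genes). The SE is the log2 fold change divided by the square root of F. No sample was dropped or imputed. The steps were tested on simulated data. Alternatives were RLE factors, library size only, no filter, DESeq2 1.42.0, limma-voom (limma 3.58.1), a block for the replicate number, and leaving out each library. The 10 genes and the lists were chosen with earlier results of these data known. All 10 genes are named, and from each other list up to 3 called genes with the smallest p in each direction. Some genes this rule names are not reported here. Mdm4, Atr, Chek1, Prkdc, Bax, Fas, Bbc3, Sesn2, Gadd45g and Trp53inp2 were named after their values were seen, as relatives or partners of named genes or as further genes of the same lists. Trp53cor1 was not found in the table under that symbol.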

Additional observations from a re-analysis of the deposited data

How the results depend on the processing

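The counts of the 10 genes called higher (4) and lower (2) were the same in each alternative run, except that 3 were lower with library sizes alone, where Zmat3 also passed. For the 44 other p53 targets the count called higher lay between 8 and 11 and the count called lower between 9 and 16. With library sizes alone 32.7% of all called genes were higher, against 48.6% with TMM, and log2 fold changes shifted by a median of -0.09. The log2 fold change of Ccng1 changed sign with library sizes alone (-0.0802) and without control replicate 4, its range with a library left out being -0.00122 to 0.0338, and that of Phlda3 with library sizes alone (-0.0696) and without control replicate 4, stretch replicate 2 or stretch replicate 4 (range -0.0171 to 0.101). None of these was called. Same-numbered libraries deviated together with correlations of 0.212 (number 2) and 0.114 (number 4), but the labels tie no number to a shared isolation. With the replicate number as a block 4 genes were higher and 2 lower, with 10 and 13 of the other targets, and 5568 genes were called in all against 6261. The block also ended the calls of Rfwd2, E2f1 and Mcm5 (edgeR adjusted p = 0.145, 0.0750 and 0.152), and DESeq2 that of Mcm5 (adjusted p = 0.0532). Rfwd2 was also lost with library sizes alone (edgeR adjusted p = 0.351). The counts of each wider list without stretch replicate 1 were added after the data were seen: 2 regulators instead of 4 were higher, and 3 growth and metabolism targets instead of 5 were lower. In the same fit the calls over all genes fell from 6261 to 5358. The cause was not tested. Each of the 10 genes had at least 3283 counts in every library.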
